A study of Homo sapiens with 9 samples.

Results

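The extracellular matrix genes described here are the 2 fibrillin genes *FBN1* and *FBN2*, the fibronectin gene *FN1*, and 6 genes of secreted glycoproteins and proteoglycans that act beside the structural fibers: *TNC*, *THBS1*, *SPARC*, *FBLN1*, *POSTN* and *SPOCK1*. They were chosen by symbol, with earlier results of these data known. All 9 were found among the 26364 gene names of the count table. RNA-seq counts came from 9 libraries of A549 cells, an established human lung adenocarcinoma line. The A549 group (2 libraries) was labelled WT. The *LA* group (2 libraries, LAfusion in the plots) carried the *LOC388942-ALK* fusion, made by Cas9 cutting with sgLOC388942 and sgALK. The sgScr group (3 libraries) carried the same fusion guides and a scramble guide, and the sg*FOS* group (2 libraries) carried them with a guide against *FOS*, the gene of a subunit of the AP-1 transcription factor. All fusion groups thus shared the guides that made the fusion, and sgScr was the control of sg*FOS*. The methods describe A549 cells expressing Cas9 and fusion lines grown from single cells, so that a fusion group may stand for few clones. The labels do not say which *FOS* guide each sg*FOS* library received, nor whether libraries of a group came from separate cultures, so that p-values measure the spread between these libraries, which may be technical.

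Fibrillins are large secreted glycoproteins that assemble into microfibrils, the scaffold on which elastic fibers form and on which latent TGF-β complexes are stored. Fibronectin is a dimeric glycoprotein that cells assemble into fibrils through integrins, and a fibronectin network guides the later laying down of fibrillin. Matricellular proteins such as tenascin-C, thrombospondin-1, SPARC and periostin are secreted into the matrix but mainly modulate adhesion, growth factor activity and matrix assembly. In lung tumors these genes are best known from stromal fibroblasts, and epithelial tumor cells can also express several of them.

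Promoter sequences of the genes were examined because the study edited *FOS*, whose protein binds the AP-1 element. RefSeq promoters on GRCh38.p14, from 250 bases before to 50 bases after the annotated start, matched 8 of the 9 genes by symbol, all except *SPOCK1*. The search, on both strands, was for the AP-1 element (TGANTCA), the cyclic AMP response element or CRE (TGACGTCA), the GC box (GGGCGG), the CCAAT box (CCAAT), the TATA box (TATAAA) and the TEAD element (GGAATG). Over 35116 promoters of this length, 7.71% held the AP-1 letters, 1.85% the CRE, 44.95% the GC box, 34.61% the CCAAT box, 11.53% the TATA box and 14.03% the TEAD letters. Among the 8 genes, the AP-1 letters were found in the window of *POSTN* and in no other, which says only that these letters are not in the other windows. The stretches shown are written 5′ to 3′ on the strand of the gene, with every match that lies wholly inside the stretch in capitals. *FBN2* and *FBN1* are shown for the fibrillin pair, *THBS1* and *SPARC* for their TEAD letters, *FN1* for its CRE and *POSTN* for its AP-1 letters. The first 4 cover the 120 bases before the start, *FN1* covers positions -200 to -121 and *POSTN* positions -250 to -191, counted from the start.
FBN2 (chr5:128538246-128538365, minus strand): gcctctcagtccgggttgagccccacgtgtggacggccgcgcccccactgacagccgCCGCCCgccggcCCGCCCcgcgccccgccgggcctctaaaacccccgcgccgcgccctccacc
FBN1 (chr15:48644971-48645090, minus strand): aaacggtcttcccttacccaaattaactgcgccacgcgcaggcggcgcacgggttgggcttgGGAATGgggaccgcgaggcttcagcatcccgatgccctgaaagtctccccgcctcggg
THBS1 (chr15:39580959-39581078, plus strand): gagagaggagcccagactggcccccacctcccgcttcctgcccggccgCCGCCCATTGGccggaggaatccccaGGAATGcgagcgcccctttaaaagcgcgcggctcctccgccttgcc
SPARC (chr5:151686916-151687035, minus strand): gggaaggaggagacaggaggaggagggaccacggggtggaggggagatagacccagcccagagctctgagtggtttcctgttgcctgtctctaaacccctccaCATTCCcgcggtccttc
FN1 (chr2:215436189-215436268, minus strand): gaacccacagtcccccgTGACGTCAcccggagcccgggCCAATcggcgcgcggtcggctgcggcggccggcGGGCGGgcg
POSTN (chr13:37598959-37599018, minus strand): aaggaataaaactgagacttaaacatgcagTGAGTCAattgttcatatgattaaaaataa

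The *FN1* window held the CRE letters at -183 to -176 and a CCAAT box from -162, and its GC boxes partly overlapped each other. The TEAD letters stood at -58 in *FBN1*, at -46 in *THBS1* and, on the opposite strand, at -17 to -12 in *SPARC*. The fibrillin pair shared no matched motif in these windows: *FBN2* held 4 GC boxes and a CCAAT box, and *FBN1* only the TEAD letters. In *THBS1* a GC box on the opposite strand directly adjoined a CCAAT box. *TNC* held a GC box at -229 and *FBLN1* a GC box at -36. A match is a description of letters and not of binding, which was not measured in these data.

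Total counts ranged from 14507228 to 20456341 per library. The replicates were unequally close: the chi-square statistic of libraries within a group, divided by its degrees of freedom, was 134 in A549 and 62.3 in *LA*, against 1.76 to 2.72 in sgScr and sg*FOS*. *FOS* RNA was at 10.5 and 9.14 CPM (counts scaled to 1000000 reads) in A549, 336 and 91.6 in *LA*, 198 to 205 in sgScr, and 68.6 and 74.3 in sg*FOS*. A guide alters DNA, so the RNA level alone does not measure the editing. All 9 markers of the A549 line were detected in every group, with *EPCAM* low. Their summed level was higher in A549 (32706 to 39474 CPM) than in the fusion groups (20309.5 to 29245 CPM). Not every marker followed the sum. *CDH1* was at 18.0 and 21.9 CPM in A549 and at 69.5 to 100 in the fusion groups, and *ALDH1A1* overlapped between them. *EPCAM* was at 5.47 and 7.84 CPM in A549, 3.02 and 4.64 in *LA*, and 9.57 to 13.2 in sgScr and sg*FOS*. For *AKR1B10*, *LA* replicate 2 (7121 CPM) exceeded both A549 libraries (4159 and 6975 CPM). For *KRT8*, *LA* replicate 2 (6786 CPM) exceeded A549 replicate 2 (6385 CPM). Of 8 fibroblast markers, *COL1A1* and *THY1* exceeded 1 CPM as group means and *COL3A1* did so in *LA* replicate 2 alone (1.38 CPM), with list sums of 15.6 to 26.1 CPM in A549, 21.0 to 22.1 in *LA*, 14.2 to 14.98 in sgScr and 18.4 to 19.6 in sg*FOS*, and *FAP* was at 0 in all libraries. Among the other markers, endothelial sums stayed at or under 1.05 CPM, while the defining leukocyte markers *PTPRC* and *CD3E* were at 0. *CD14* and *CD68* brought the leukocyte sums to 53.8 to 74.7 CPM in A549, 38.96 to 39.1 in *LA*, 37.7 to 39.2 in sgScr and 53.7 to 56.4 in sg*FOS*. The part of other cells in the results was not tested. In bulk RNA, fewer cells expressing a gene and less RNA per cell cannot be told apart.

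The genes spanned a wide range of abundance, which was set on a per-length scale (RPKM, the CPM per kilobase of transcript). *FN1* was the most abundant in every group, with a mean RPKM of 95.1 in A549, 135 in *LA*, 239 in sgScr and 272 in sg*FOS*, and it ranked 186th of the 17438 genes detected in sg*FOS*. It alone took 68.6% to 86.0% of the reads of the 9 genes. In the fusion groups *FBLN1*, *FBN2* and *THBS1* followed at mean RPKM between 11.2 and 22.7, and *FBN1*, *SPARC*, *SPOCK1* and *TNC* were low, between 0.262 and 3.39. In A549 *FBLN1* was at 34.4 and *FBN2* at 1.82 RPKM. *POSTN*, which encodes periostin, a ligand of αv integrins typical of fibroblasts, had 0 counts in 8 libraries and 1 count in sg*FOS* replicate 2. A count of 0 allows up to 3 counts, so *POSTN* was at or near the floor and was not tested.

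**Figure D1:**
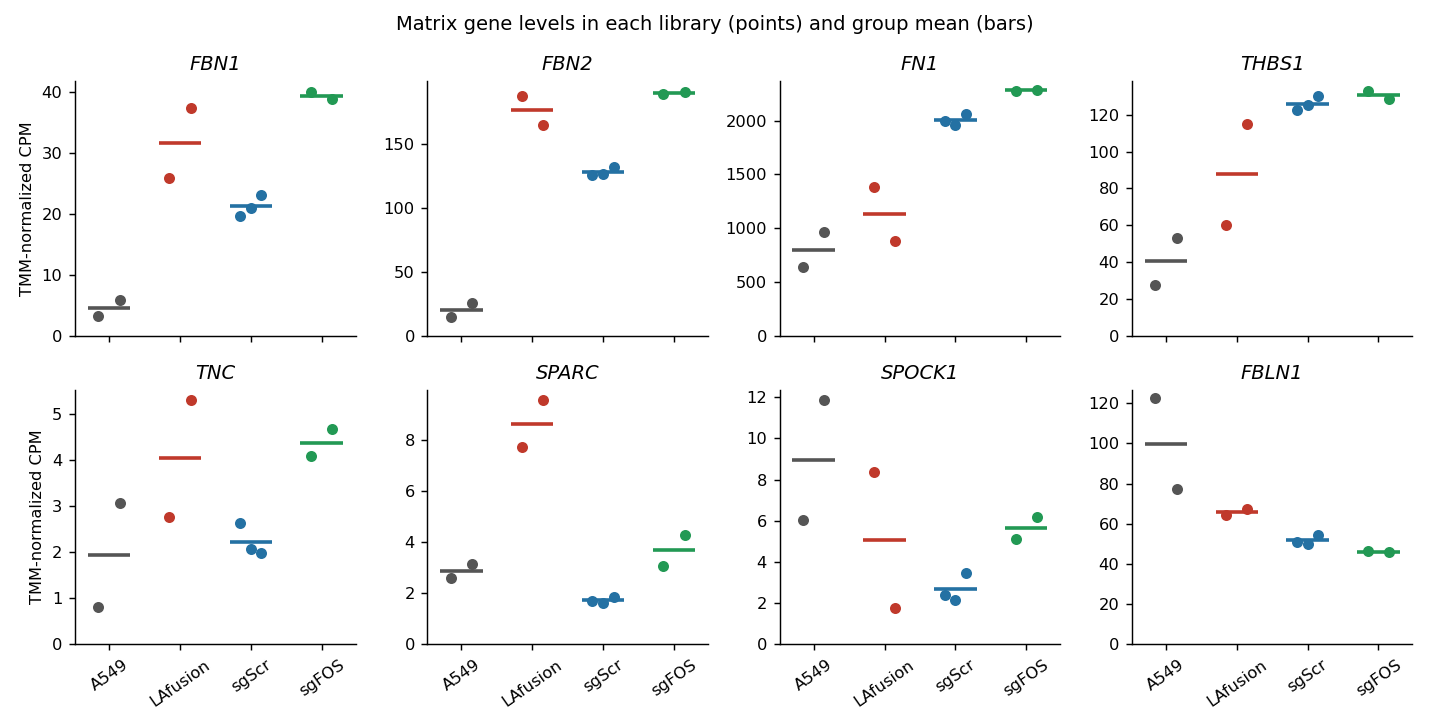
TMM-normalized CPM (linear axes from 0) of 8 matrix genes by group, with 1 point per library and a bar at the group mean. Both fibrillins were lowest in the 2 A549 libraries and highest on average in sg*FOS*, whereas *FBLN1* was highest in A549.

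The fibrillin genes showed the largest relative differences in mean level between A549 and each fusion group. *FBN1* encodes fibrillin-1, the main microfibril protein of adult tissue, mutated in Marfan syndrome. It lies at 15:48700510-48937918 on the minus strand of GRCh37, with 66 exons and a transcript of 11609 bp. Its counts were 50 and 100 in A549, 418 and 675 in *LA*, 409, 426 and 398 in sgScr, and 586 and 580 in sg*FOS*. The normalized levels were 3.14 and 5.90 CPM in A549, 25.8 and 37.2 in *LA*, 19.6, 20.9 and 23.1 in sgScr, and 39.9 and 38.7 in sg*FOS*. No fusion library came near the A549 libraries, and at these levels the sg*FOS* libraries were above all others. Scaled by library size alone, *LA* replicate 2 (40.42 CPM) was level with the sg*FOS* libraries (40.39 and 39.71 CPM). The order of the group means was A549, sgScr, *LA* and sg*FOS*, and the difference between sgScr and *LA* did not pass the test (log2 fold change -0.62, SE 0.18, adjusted p = 0.0561).

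*FBN2* encodes fibrillin-2, the fibrillin of developing tissues, and lies at 5:127593601-127994878 on the minus strand, with 65 exons and a transcript of 10927 bp. Its counts were 233 and 428 in A549, 3052 and 2998 in *LA*, 2619, 2586 and 2286 in sgScr, and 2787 and 2860 in sg*FOS*. The levels were 14.6 and 25.2 CPM in A549, 188 and 165 in *LA*, 126, 127 and 133 in sgScr, and 189.7 and 191 in sg*FOS*. The groups kept the order seen for *FBN1*, and both sg*FOS* libraries were above the higher *LA* library by a small margin. That margin depended on the scaling. With library size alone, *LA* replicate 1 (200.3 CPM) was above both sg*FOS* libraries (192.1 and 195.8 CPM). Per length, *FBN2* was the more abundant fibrillin in every library. The ratio of *FBN2* to *FBN1* RPKM was 4.95 and 4.55 in A549, 7.76 and 4.72 in *LA*, 6.80, 6.45 and 6.10 in sgScr, and 5.05 and 5.24 in sg*FOS*. The 3 sgScr libraries thus lay above both sg*FOS* libraries, while the 2 *LA* libraries spanned nearly the whole range.

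*FN1*, which encodes fibronectin, lies at 2:216225163-216300796 on the minus strand, with 46 exons and a transcript of 8390 bp. Its counts were 10095 and 16317 in A549, 22397 and 15915 in *LA*, 41586, 39978 and 35560 in sgScr, and 33452 and 34242 in sg*FOS*. Normalized, these were 634 and 962 CPM in A549, 1379.8 and 878 in *LA*, 1997, 1963 and 2063 in sgScr, and 2277 and 2285 in sg*FOS*. The *LA* libraries straddled the higher A549 library, and the sgScr and sg*FOS* libraries stood above both. With library size alone, the lower *LA* library (953 CPM) lay just above the higher A549 library (949 CPM). The mean level was 798 ± 232 CPM (SD, n = 2) in A549, 1129 ± 355 (SD, n = 2) in *LA*, 2008 ± 50.5 (SD, n = 3) in sgScr and 2281 ± 5.59 (SD, n = 2) in sg*FOS*.

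*THBS1* encodes thrombospondin-1, an activator of latent TGF-β and inhibitor of angiogenesis, and lies at 15:39873280-39891667 on the plus strand, with 22 exons and a transcript of 7789 bp. Its counts were 437 and 903 in A549, 973 and 2088 in *LA*, 2552, 2553 and 2246 in sgScr, and 1954 and 1922 in sg*FOS*. The levels were 27.5 and 53.2 CPM in A549, 59.9 and 115 in *LA*, 123, 125 and 130.3 in sgScr, and 133 and 128 in sg*FOS*. A549 was lowest, the *LA* libraries differed from each other by 1.92-fold, and the ranges of sgScr and sg*FOS* overlapped.

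*FBLN1* encodes fibulin-1, a calcium-binding glycoprotein of basement membranes and elastic fibers that binds fibronectin, and lies at 22:45898118-45997015 on the plus strand, with 17 exons and a transcript of 2904 bp. Its counts were 1954 and 1308 in A549, 1047 and 1221 in *LA*, 1062, 1019 and 941 in sgScr, and 682 and 686 in sg*FOS*. The levels were 123 and 77.1 CPM in A549, 64.5 and 67.4 in *LA*, 51.0, 50.04 and 54.6 in sgScr, and 46.4 and 45.8 in sg*FOS*. Its groups did not overlap and descended from A549 through *LA* and sgScr to sg*FOS*. Between these neighboring groups, 63.2%, 56.7% and 48.6% of all genes did not overlap. In edgeR's quasi-likelihood test, A549 to *LA* (adjusted p = 0.268) and sgScr to sg*FOS* (adjusted p = 0.0510) did not pass. The order of the means was the reverse of that of *FN1*, whose A549 and *LA* libraries overlapped in TMM-normalized level.

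*SPARC*, *TNC* and *SPOCK1* were low in all groups, with mean RPKM of at most 2.50. *SPARC* encodes a collagen-binding glycoprotein of remodelling tissue and lies at 5:151040657-151066536 on the minus strand, with 10 exons and a transcript of 3451 bp. Its counts were 41 and 53 in A549, 125 and 173 in *LA*, 35, 33 and 32 in sgScr, and 45 and 64 in sg*FOS*, which gave levels of 2.58 and 3.12, 7.70 and 9.55, 1.68, 1.62 and 1.86, and 3.06 and 4.27 CPM in that order. *LA* was the highest group and sgScr the lowest, and A549 and sg*FOS* overlapped between them.

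*TNC* encodes tenascin-C, an anti-adhesive glycoprotein of wounds and tumor stroma, and lies at 9:117781854-117880486 on the minus strand, with 28 exons and a transcript of 8500 bp. Its counts were 13 and 52 in A549, 45 and 96 in *LA*, 55, 42 and 34 in sgScr, and 60 and 70 in sg*FOS*, with levels of 0.817 and 3.07, 2.77 and 5.30, 2.64, 2.06 and 1.97, and 4.08 and 4.67 CPM. The A549 libraries differed from each other by 3.75-fold and overlapped *LA* and sgScr. *SPOCK1* encodes testican-1, a secreted proteoglycan with a domain related to SPARC, and lies at 5:136310987-136934068 on the minus strand, with 11 exons and a transcript of 4824 bp. Its counts were 96 and 201 in A549, 136 and 32 in *LA*, 50, 44 and 60 in sgScr, and 75 and 93 in sg*FOS*, with levels of 6.03 and 11.8, 8.38 and 1.77, 2.40, 2.16 and 3.48, and 5.11 and 6.21 CPM. The *LA* libraries held both the second highest and the lowest value, a 4.75-fold difference within the group.

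Opposite-strand genes could share reads with these loci, since the strand setting of the counting is not given in the sources used here. *SLC27A6*, opposite *FBN2*, had 0 to 7 counts, and *FSIP1*, opposite *THBS1*, had 17 to 43 counts. Both were far below the counts of the genes they overlap.

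*LA* cells were first compared with A549, the comparison of cells with and without the fusion. The fibrillins rose: *FBN2* by 8.63-fold (log2 fold change 3.11, SE 0.44, adjusted p = 0.000115) and *FBN1* by 6.76-fold (2.76, SE 0.49, adjusted p = 0.00109) in edgeR's quasi-likelihood test with Benjamini-Hochberg adjustment. They ranked 163rd and 243rd by fold change among 14425 genes tested. *SPARC* rose by 2.94-fold (1.56, SE 0.54, adjusted p = 0.0453). *THBS1* had a log2 fold change of 1.08 (SE 0.44, adjusted p = 0.0833), *TNC* 1.01 (SE 0.69, adjusted p = 0.311) and *FN1* 0.46 (SE 0.44, adjusted p = 0.482), none of which passed. The same was true of *FBLN1*, at -0.64 (SE 0.40, adjusted p = 0.268), and *SPOCK1*, at -0.86 (SE 0.61, adjusted p = 0.333).

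In all, 3 of the 8 tested genes were called higher and 0 lower, beside 19.5% of all genes called in either direction (9.57% higher and 9.94% lower). With an unadjusted p under 0.05, 4 were higher and 0 lower, and the share of all genes at that p alone was not counted. These 4 also passed the study's threshold, which adds an absolute log2 fold change over 0.5. Of all genes, 34.5% passed it in either direction. DESeq2 called 3 and 0, beside 1551 higher and 1778 lower of 19753 genes. The groups did not overlap for 5 of the 8 genes, which held for 63.2% of all genes. The median log2 fold change of the 8 genes was 1.04, beside 0.04 over all genes tested. Without A549 replicate 1 the median was 0.49, and without A549 replicate 2 it was 1.59.

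Fold changes in this comparison moved with transcript length. Across genes, which are not independent replicates, the Spearman correlation of log2 fold change with transcript length was 0.58, and with GC content -0.31. Most of these matrix genes have long transcripts. Among the 3596 tested genes with transcripts of 5000 bp or more, the median log2 fold change was 0.82, with 25.7% called higher and 1.56% lower. After a loess curve of counts on length and GC content was taken out of each library, *FBN2* was at 2.20 (adjusted p = 0.00340) and *FBN1* at 1.80 (adjusted p = 0.0156), so that both calls held at a smaller size. *SPARC* was at 1.39 and no longer passed (adjusted p = 0.0535). *FN1* turned to -0.24 (adjusted p = 0.668), *THBS1* was at 0.36 (adjusted p = 0.532) and *TNC* at 0.30 (adjusted p = 0.799). The corrected median of the 8 genes was 0.33, beside 0.04 over all genes.

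The *SPARC* call also rested on single libraries. It passed without A549 replicate 2 (adjusted p = 0.0469), the lone A549 library then being assumed to vary like the *LA* libraries, and was lost without A549 replicate 1, *LA* replicate 1 or *LA* replicate 2, with adjusted p up to 0.346. Both fibrillins passed in each of these fits, with adjusted p at most 0.0236 for *FBN1* and 0.00236 for *FBN2*. Without A549 replicate 2, *THBS1* (1.55, adjusted p = 0.0141) and *FBLN1* (-1.02, adjusted p = 0.0297) passed as well.

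The sgScr libraries, which also carried the fusion, were set beside the same A549 libraries. This comparison shares those libraries with the one of *LA* and A549, so its values are given side by side and not as separate support. *FBN2* was higher in sgScr by 2.66 on the log2 scale (SE 0.27, adjusted p = 0.00450) and *FBN1* by 2.20 (SE 0.30, adjusted p = 0.00678), where *LA* had 3.11 and 2.76. *THBS1* was higher by 1.62 (SE 0.30, adjusted p = 0.0112) and *FN1* by 1.31 (SE 0.21, adjusted p = 0.00910). *SPOCK1* was at -1.77 (SE 0.37, adjusted p = 0.0151) and *FBLN1* at -0.97 (SE 0.22, adjusted p = 0.0181), both called lower. *SPARC* (-0.75, adjusted p = 0.0575) and *TNC* (0.16, adjusted p = 0.822) did not pass.

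Of the 8 genes, 4 were called higher and 2 lower, beside 41.5% of all genes called (19.8% higher and 21.7% lower). DESeq2 also called 4 and 2, beside 3135 higher and 3243 lower of 19856 genes. The groups did not overlap for 7 of the 8, which held for 69% of all genes. Among genes with transcripts of 5000 bp or more, 48.7% were called higher and 4.51% lower, and the correlation of log2 fold change with length was 0.59. With the length and GC correction, the log2 fold changes were 1.80 for *FBN2*, 1.27 for *FBN1*, 0.88 for *THBS1*, 0.66 for *FN1*, -2.26 for *SPOCK1* and -0.77 for *FBLN1*, and each remained called (adjusted p at most 0.0236). *SPARC*, at -0.99, then passed as well (adjusted p = 0.0177), and *TNC* turned to -0.44 (adjusted p = 0.522). Leaving out sgScr replicate 1 left 1 matrix gene called higher and 0 lower, and leaving out sgScr replicate 2 or 3 left 0 in each direction. The whole table fell likewise, from 2872 genes higher and 3137 lower. It had 117 higher and 13 lower without sgScr replicate 1, and 3 and 0 without sgScr replicate 2 or 3.

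**Figure D2:**
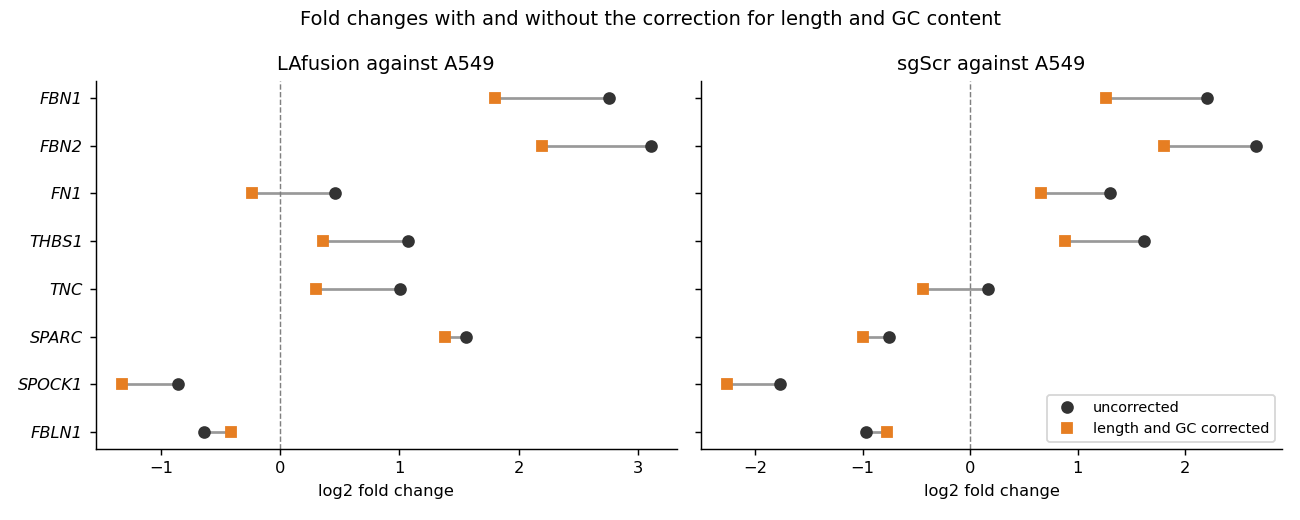
Log2 fold changes of the matrix genes without (circles) and with (squares) correction for transcript length and GC content, in *LA* against A549 and sgScr against A549. *FBN1* and *FBN2* stayed above 0 in both panels, and *FN1* crossed 0 only in *LA* against A549.

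Both *LA* and sgScr carried the fusion, and their comparison shows how far the genes differed between groups of that genotype. *SPARC* was 5.16-fold lower in sgScr (log2 fold change -2.37, SE 0.21, adjusted p = 0.00241), the largest difference of the set. *FBN2* was 1.42-fold lower (-0.50, SE 0.09, adjusted p = 0.0142) and *FBLN1* 1.31-fold lower (-0.39, SE 0.09, adjusted p = 0.0286), whereas *FN1* was 1.73-fold higher (0.79, SE 0.19, adjusted p = 0.0308). *TNC* (-0.90, adjusted p = 0.103), *THBS1* (0.48, adjusted p = 0.229), *SPOCK1* (-0.95, adjusted p = 0.290) and *FBN1* did not pass. The groups did not overlap for 7 of the 8, which held for 56.7% of all genes. The calls made 1 gene higher and 3 lower of 8, beside 22.9% of all genes called (10.6% higher and 12.3% lower). DESeq2 called 1 higher and 4 lower, *FBN1* being the added gene, beside 1786 higher and 1909 lower of 20068 genes. The scramble guide and anything else that separates these libraries cannot be told apart.

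*SPARC* remained called without any 1 library of this comparison (adjusted p at most 0.0361). Leaving out any 1 sgScr library left 0 matrix genes higher and 1 lower. In these fits the whole table fell from 1534 genes higher and 1793 lower to 171 to 222 higher and 218 to 310 lower. The loss of the other calls thus went with the whole table. *SPOCK1* turned to 0.55 without *LA* replicate 1.

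Editing of *FOS* in fusion cells was compared with the scramble guide. *FBN1* rose by 1.88-fold (log2 fold change 0.91, SE 0.08, adjusted p = 3.78e-12), *FBN2* by 1.496-fold (0.58, SE 0.04, adjusted p = 1.12e-14) and *FN1* by 1.15-fold (0.20, SE 0.03, adjusted p = 1.74e-05). *SPARC* rose by 2.16-fold (1.11, SE 0.24, adjusted p = 0.000677), *SPOCK1* by 2.16-fold (1.11, SE 0.21, adjusted p = 8.05e-05) and *TNC* by 1.97-fold (0.98, SE 0.22, adjusted p = 0.000825). *THBS1* did not pass, with a log2 fold change of 0.07 and a 95% interval from -0.02 to 0.15 (adjusted p = 0.267). *FBLN1* was at -0.15 (95% interval -0.27 to -0.04, adjusted p = 0.0510), just outside the threshold.

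In this comparison 6 of the 8 tested genes were called higher and 0 lower, beside 22.7% of all genes called (12.2% higher and 10.5% lower). With an unadjusted p under 0.05, 6 were higher and 1 lower, and the share of all genes at that p alone was not counted. *FN1* and *FBLN1* were among them but missed the study's threshold, which adds an absolute log2 fold change over 0.5. Of all genes, 5.76% passed it in either direction. DESeq2 called 6 and 0, beside 998 higher and 833 lower of 19742 genes. The groups did not overlap for 7 of the 8, which held for 48.6% of all genes. The median log2 fold change was 0.74, against 0.00 over all 14196 genes tested. Of the marker lists, 4 of 9 markers of the A549 line were called higher and 2 lower. Also called higher were 2 of 3 tested fibroblast markers (*COL1A1* and *THY1*) and 1 of 2 leukocyte markers (*CD68*). The part of these markers in the rise of the matrix genes was not tested. By fold change *SPARC* ranked 78th, *SPOCK1* 79th, *TNC* 133rd, *FBN1* 176th and *FBN2* 535th.

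The length trend was not seen here, as the Spearman correlation of log2 fold change with transcript length was -0.01, and 0.26 with GC content. The 6 calls held with the length and GC correction, under which *FBLN1* also passed as lower (-0.21, adjusted p = 0.00636). *SPARC*, at 32 to 64 counts per library, was lost without sg*FOS* replicate 2 (0.85, adjusted p = 0.0833). The other 5 remained called without any 1 library. The 3 largest fold changes were of genes at under 100 counts per library, whereas *FBN1* and *FBN2* rested on 398 to 2860 counts per library.

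The small spread between sgScr and sg*FOS* libraries carried these calls. In a fit of all 9 libraries, which takes a common spread that includes the distant A549 and *LA* replicates, 0 of the 8 genes passed, as did 0 genes of the whole table, although the fold changes barely moved (*FBN1* 0.90 to 0.97 over all alternatives that kept the libraries). Since sgScr enters both comparisons, a low or high sgScr level moves them in opposite directions. *FBN2* and *SPARC* were called lower in sgScr than in *LA* and higher in sg*FOS* than in sgScr. For *FBN2* the sg*FOS* libraries (189.7 and 191 CPM) lay next to those of *LA* (188 and 165 CPM), and for *SPARC* the sg*FOS* libraries (3.06 and 4.27 CPM) stayed under those of *LA* (7.70 and 9.55 CPM).

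**Figure D3:**
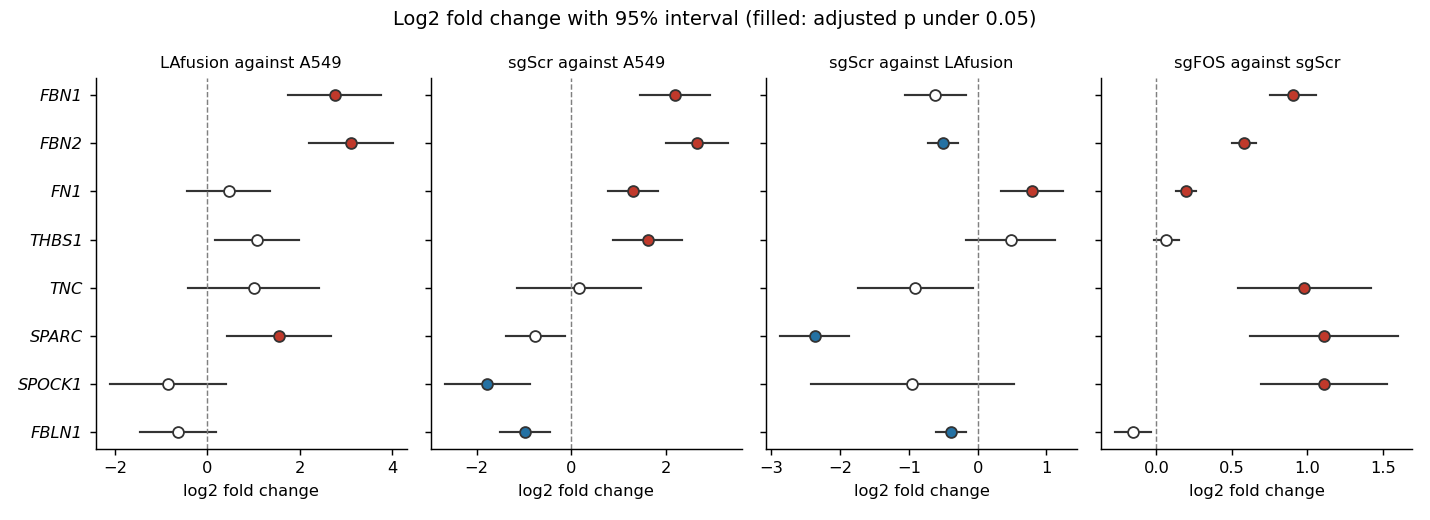
Log2 fold changes with 95% intervals for the matrix genes in 4 comparisons, filled where the adjusted p was under 0.05 (red higher, blue lower). The horizontal scales differ between panels; the intervals of sg*FOS* against sgScr are the narrowest, with 6 of 8 points filled and all of them above 0.

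Other genes of the same pathways were read from 4 lists: elastic fiber and microfibril genes, matricellular relatives, crosslinking and processing enzymes, and receptors. In *LA* against A549, 2 of 15 tested elastic fiber genes, 5 of 14 matricellular genes, 1 of 15 enzymes and 3 of 12 receptors were called higher and 0 lower in each list, beside 9.57% of all genes higher and 9.94% lower, and 25.7% higher among long transcripts. The elastic fiber (13.3%) and enzyme (6.67%) lists were near the share of all genes. *LTBP2*, which encodes a microfibril-associated member of the family named latent TGF-β binding proteins, was higher by 2.62 on the log2 scale (SE 0.46), and *EFEMP1* (fibulin-3) by 1.61 (SE 0.47). The matricellular genes *CTGF* (2.90, SE 0.53) and *CYR61* (2.15, SE 0.46), both CCN family genes that bind integrins, were higher, as were *SMOC1* (2.82, SE 0.46) and *FSTL1* (1.52, SE 0.41), relatives of *SPARC*. *TGM2*, the transglutaminase that crosslinks fibronectin and fibrillin, was higher by 2.47 (SE 0.42), with 81.4 and 84.95 CPM in A549 and 493 and 454 in *LA*. Of the receptors, *ITGB6* (2.94, SE 0.64) and *ITGAV* (1.34, SE 0.43), whose products pair as a fibronectin- and latent TGF-β-binding integrin, were higher. With the length and GC correction *ITGAV* no longer passed (0.64, adjusted p = 0.121). The median log2 fold changes were 0.54, 1.24, 0.61 and 0.61 for the 4 lists in that order, beside 0.04 over all genes and 0.82 over the genes with long transcripts.

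In sg*FOS* against sgScr, 4 of 15 elastic fiber genes were called higher and 2 lower, 5 of 14 matricellular genes higher and 1 lower, 6 of 15 enzymes higher and 2 lower, and 7 of 12 receptors higher and 1 lower, beside 12.2% of all genes higher and 10.5% lower. The list medians were 0.09, 0.16, 0.18 and 0.26, all smaller than the 0.74 of the 8 matrix genes, beside 0.00 over all genes. Among the genes of the family named latent TGF-β binding proteins, *LTBP2* (0.64, SE 0.08), *LTBP3* (0.29, SE 0.04) and *LTBP1* (0.27, SE 0.07) were higher, and *LTBP4* was lower (-0.31, SE 0.04). *TGFBI*, a TGF-β-induced integrin ligand related to periostin, was higher by 0.67 (SE 0.03), the CCN family gene *WISP2* by 0.50 (SE 0.09), *FSTL1* by 0.43 (SE 0.05) and *CTGF* by 0.28 (SE 0.05).

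Of the enzymes, the lysyl oxidase gene *LOXL4* was higher by 0.76 (SE 0.18), the procollagen protease gene *BMP1* by 0.41 (SE 0.05), *FURIN*, whose product cleaves profibrillins, by 0.32 (SE 0.04), and *TGM2* by 0.31 (SE 0.04). The receptors called with the largest differences were *LRP1* (0.53, SE 0.04), which clears thrombospondin-1 from the cell surface, the syndecan *SDC4* (0.30, SE 0.05), *CD47* (0.26, SE 0.05), a thrombospondin receptor, and *CD44* (0.26, SE 0.04), a hyaluronan receptor. All of these differences had an adjusted p of at most 0.00199.

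In sgScr against *LA*, 0 of 15 elastic fiber and 0 of 15 matricellular genes were called higher and 6 of each lower, beside 10.6% of all genes higher and 12.3% lower. The median log2 fold changes were -0.48 and -0.99, and those of the enzymes and receptors 0.16 and -0.08, beside -0.02 over all genes. Those lower included the elastic fiber genes *LTBP2* (-1.82, SE 0.28), *EMILIN1* (-1.89, SE 0.52) and *EMILIN2* (-1.09, SE 0.25), of the elastin microfibril interface, and the fibrillin-binding *ADAMTS10* (-1.20, SE 0.19). They also included the matricellular genes *SMOC1* (-4.83, SE 0.29), the osteopontin gene *SPP1* (-1.62, SE 0.13), *CTGF* (-1.47, SE 0.34) and *FSTL1* (-1.005, SE 0.10). Of 15 enzymes, *KDELC2* was higher (0.72, SE 0.13) and 3 were lower, namely *TGM2* (-1.18, SE 0.08), *BMP1* (-1.10, SE 0.15) and *POGLUT1* (-0.45, SE 0.12). *KDELC2* and *POGLUT1* encode glucosyltransferases of EGF-like domains. Of 12 receptors 3 were higher, including the fibronectin receptor subunit *ITGA5* (0.62, SE 0.11) and the syndecan *SDC1* (0.45, SE 0.09), and 2 lower, *ITGB6* (-2.27, SE 0.31) and *CD47* (-0.36, SE 0.10). With the length and GC correction *CD47* no longer passed (-0.41, adjusted p = 0.0953). *SMOC1* was thus at 51.2 and 82.7 CPM in *LA* and at 1.82 to 3.02 in sgScr, a wider gap than that of *SPARC*. *EMILIN1* had 42 and 150 counts in *LA* and 40, 23 and 26 in sgScr. Leaving out any 1 sgScr library cut the calls of the whole table from 1534 higher and 1793 lower. The fits then had 171 to 222 higher and 218 to 310 lower, a limit that also applies to the genes named here.

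In sgScr against A549, the calls were 3 higher and 3 lower of 15 elastic fiber genes, 1 and 2 of 13 matricellular genes, 7 and 1 of 15 enzymes, and 5 and 0 of 12 receptors. The shares called, 40%, 23.1%, 53.3% and 41.7%, stand beside 41.5% of all genes, and the median log2 fold changes were -0.23, 0.16, 0.65 and 0.54, beside 0.02 over all genes. Those with the largest differences included *THSD4* (1.60, SE 0.15), which promotes microfibril assembly, *LTBP3* (-1.20, SE 0.32), *LTBP1* (0.96, SE 0.22), *LTBP2* (0.86, SE 0.17), *SMOC1* (-1.94, SE 0.31), *CYR61* (1.17, SE 0.16) and *SPP1* (-0.54, SE 0.15). *TGM2* (1.34, SE 0.14), *LOXL4* (1.24, SE 0.30), *LOXL2* (1.03, SE 0.26) and the fucosyltransferase gene *POFUT1* (0.93, SE 0.15) were higher among the enzymes. *ITGAV* (1.57, SE 0.31), *ITGB1* (1.19, SE 0.31), *LRP1* (1.05, SE 0.22) and *CD44* (0.55, SE 0.17) were higher among the receptors. With the length and GC correction, *LTBP1* (0.36), *LTBP2* (0.40), *SPP1* (-0.24) and *LOXL2* (0.96) no longer passed, and *CD44* was at -0.062. Without sgScr replicate 2 or 3, only 3 genes of the whole table were called higher and 0 lower. Most of the calls named here were thus lost in those fits.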

How the data were processed

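RNA-seq was done in 9 libraries of A549 cells, grouped by the sample labels. The authors deposited raw counts per gene, not normalized, from stranded mRNA libraries sequenced as 150-bp paired ends. Per the submitters' processing notes, reads were aligned to hg19 with STAR 2.7.10b and analysed with DESeq2 1.26.0. The tool behind the counting, the annotation and the strand setting are not given in the sources used here.

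The 9 genes and all lists were chosen with earlier results of these data known. Lists were of general knowledge, and at most 4 genes of each are named, those that were called, averaged 50 counts or more, did not overlap between groups and had the largest fold change. Counts were tested in R 4.3.3 with edgeR 4.0.16 (TMM, filterByExpr, quasi-likelihood, two-sided, Benjamini-Hochberg over all genes tested, called at an adjusted p under 0.05), on the libraries of each comparison alone. CPM used TMM factors over all 9 libraries. With library size alone, 4 group means of the matrix genes moved by more than their SD and 32 did not. Transcript lengths came from GENCODE on GRCh37. Of 26364 gene names, 22494 matched directly and 1332 through an older symbol. The alternatives were DESeq2 1.42.0, other scalings and filters, all libraries in 1 fit, a replicate block, a length and GC correction (loess, span 0.5), the study's threshold (absolute log2 fold change over 0.5 and unadjusted p under 0.05), and leaving out each library. The procedures were tested on simulated data for *LA* against A549 and sg*FOS* against sgScr only, which is no test of the calls given here. Plots were made with Python 3.11.15. The floor of 3 counts covers counting error only, as the reads carry no molecular identifiers.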

Additional observations from a re-analysis of the deposited data

How the results depend on the processing

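Counts of called matrix genes moved as follows. In *LA* against A549 (3 higher, 0 lower), the replicate block and the length and GC correction each gave 2 higher, with *SPARC* lost (adjusted p = 0.104 with the block). The fit of all 9 libraries gave 4 higher and 1 lower, the block with the correction 3 and 1, the study's threshold 4 and 0, and leaving out a library 2 to 4 and 0 to 1. In sg*FOS* against sgScr (6 higher, 0 lower), the fit of all 9 libraries gave 0 higher. The mean filter of 50 counts removed *SPARC* from the test and gave 5 higher, and the study's threshold removed *FN1* and gave 5. *FBLN1* was lower, 1 gene, with DESeq2 size factors, upper quartile normalization, the mean filter, and the correction with or without the block. Leaving out a library gave 5 to 6 higher and 0 lower. In sgScr against *LA* (1 higher, 3 lower), the fit of all 9 libraries and the replicate block each gave 0 higher and 1 lower, the block with the correction 1 and 1, DESeq2, library size alone and the study's threshold 1 and 4, and leaving out a library 0 to 2 and 1 to 5. In sgScr against A549 (4 higher, 2 lower), the replicate block gave 1 lower with *FBLN1* lost, and the block with the correction 3 higher with *FN1* lost (adjusted p = 0.0541). The correction, DESeq2 size factors, upper quartile normalization, the fit of all 9 libraries and the study's threshold gave 3 lower, and leaving out a library 0 to 5 higher and 0 to 3 lower. The other alternatives that kept all libraries left these counts as they were. Directions reversed for *FN1* in *LA* against A549 (-0.24 with the correction, -0.26 with the block added), for *SPOCK1* in sgScr against *LA* (0.55 without *LA* replicate 1 and -1.69 without *LA* replicate 2), and in sgScr against A549 for *TNC* (-0.44 and -0.19 in the same 2 fits, -0.47 without A549 replicate 1, 1.40 without A549 replicate 2) and *CD44* (-0.062 and -0.079). The causes were not tested.

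Over all genes, *LA* against A549 called 1380 higher and 1434 lower. These became 1601 and 682 with library size alone, which moved the median of all genes by 0.28, 843 and 747 with the length and GC correction, 791 and 728 with the replicate block, 3552 and 3247 in the fit of all 9 libraries, 2505 and 2472 by the study's threshold, and 185 to 2383 higher and 68 to 2695 lower without a library. In sg*FOS* against sgScr, 1731 and 1490 became 998 and 833 with DESeq2, 530 and 288 by the study's threshold, and 0 and 0 in the fit of all 9 libraries. In sgScr against *LA*, 1534 and 1793 became 511 and 719 with the replicate block, 849 and 989 with the correction added, and 569 and 867 in the fit of all 9 libraries, and in sgScr against A549, 2872 and 3137 became 1927 and 1553 with the block and 1687 and 1504 with the correction added. Without a library these 2 comparisons called 171 to 4938 and 3 to 6059 genes higher. The replicate numbers share no stated source, and same-numbered libraries did not deviate together (correlation -0.23 in *LA* against A549, -0.13 and 0.01 in sg*FOS* against sgScr). A block with crossed numbers, chosen after seeing the data, called 1977 higher and 1901 lower in *LA* against A549. In fits that leave 1 library in a group, it is assumed to vary like those of the other group. The low counts of *TNC*, *SPARC* and *SPOCK1* limit their precision.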

Other observations

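The genes whose log2 CPM ran most alike with each matrix gene over the 9 libraries were sought among the 11900 genes that averaged 50 counts or more. The libraries fall into 4 groups and share a normalization, so that these correlations are descriptions. *MN1* was among the nearest genes of both fibrillins (Pearson r 0.993 with *FBN1* and 0.993 with *FBN2*). The others were *HSPA12A* (0.997) and *ENTPD7* (0.991) for *FBN1*, and *HIVEP1* (0.995) and *LDOC1L* (0.993) for *FBN2*. *FN1* ran closest to *SESN3* (0.990), *POLR3E* (0.987) and *SCD5* (0.984), and *THBS1* to *TMTC2* (0.989), *ADAM23* (0.988) and *IL6R* (0.987). The descending pattern of *FBLN1* was nearest to those of *UCKL1* (0.994), *GUSB* (0.987) and *FAM69B* (0.986). The 3 low genes had looser neighbors. *SPARC* was nearest to *SFMBT2* (0.973), *SLC22A4* (0.963) and *TNS4* (0.960), *TNC* to *ZDHHC3* (0.980), *ABHD4* (0.946) and *NFE2L3* (0.935), and *SPOCK1* to *GNG4* (0.949), *DPH3* (0.921) and *SLC25A33* (0.918).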
